A study of Mus musculus with 9 samples.

Results

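Nuclear genes for the machinery that brings proteins into mitochondria, and for the chaperones that fold them in the matrix, were followed across 3 levels of MYC in a mouse leukemia line. The genes were all protein-coding genes with a symbol beginning in Timm or Tomm (translocases of the inner and outer membrane), together with 15 named partners: Hspd1, Hspe1, Hspa9, Grpel1, Grpel2, Pam16, Dnajc19, Dnaja3, Trap1, C1qbp, Samm50, Mtx1, Mtx2, Pmpca and Pmpcb. The rule took 41 genes of 53380 in the tables, 21865 of which were protein-coding. Symbols came from GENCODE M21. The rule uses names and no measured values, though it was written with earlier results of these data known.

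The cells came from T cell acute lymphoblastic leukemia (T-ALL) of EμSRα-tTA/tet-O-MYC mice on the FVB/N background. In these mice the EμSRα enhancer and promoter drive the tetracycline transactivator tTA in lymphocytes, tTA switches on a human MYC transgene (hMYC), and doxycycline blocks it. All 9 libraries carried both transgenes and were collected at 48 h, in 3 groups of 3: mock-treated cells (MYC on), cells given 20 pg/mL doxycycline (MYC intermediate) and cells given 500 pg/mL doxycycline (MYC off). Mock treatment did not contain the drug, so MYC level and drug exposure cannot be told apart, and a single tumor-derived line was the model. Whether the replicates were grown as separate cultures is not given in the labels, so the p-values measure the spread between these libraries, which may be technical.

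Most mitochondrial proteins are made in the cytosol and imported. The TOM complex receives them at the outer membrane, the small TIM chaperones escort hydrophobic ones across the intermembrane space, and the TIM22, SAM and TIM23 complexes place them in the inner membrane, in the outer membrane or, through a motor built on the HSP70 protein mortalin, in the matrix. There the processing peptidase removes the targeting presequence, and HSP60 with its lid HSP10 folds the product. MYC binds DNA with its partner MAX, typically at the E-box sequence CACGTG, and is known to promote mitochondrial biogenesis.

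The E-box was looked for in RefSeq promoter windows (GRCm38.p6) that reach from 250 bases before to 50 after the annotated start. Windows were found for 36 of the 41 genes, all but Grpel2, Hspa9, Timm21, Tomm40l and Tomm7. The motif reads the same on both strands. It stood in windows of 6 genes (16.7% of 36), against 8.09% of all 27025 genes with a window and 11.8% of the 9388 such genes that were tested for expression. Those stretches are shown because their 6 genes are among the 13 with the largest change. Each reads 5′ to 3′ on the strand of its gene, and capitals mark the E-box.
Hspd1, chr1:55088306-55088335, minus strand: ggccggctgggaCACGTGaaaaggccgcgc
Timm9, upstream E-box, chr12:71136701-71136760, minus strand: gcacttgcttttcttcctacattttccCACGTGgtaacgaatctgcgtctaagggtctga
Timm9, E-box at the start site, chr12:71136659-71136688, minus strand: catcactgccccCACGTGttctcagctttc
Timm8a1, upstream E-box, chrX:134541874-134541920, minus strand: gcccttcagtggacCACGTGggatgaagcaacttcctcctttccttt
Timm8a1, E-box in the first exon, chrX:134541629-134541658, minus strand: ccgtcacccagaCACGTGaaggtcggcaag
Timm10, chr2:84827037-84827066, plus strand: ccggaagtgaccCACGTGcttcttatttcg
Tomm20, chr8:126946015-126946074, minus strand: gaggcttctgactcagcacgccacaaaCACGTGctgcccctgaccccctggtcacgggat
Tomm20l, chr12:71111391-71111420, plus strand: ccggggtttgctCACGTGtggctggcccgt

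The Hspd1 motif began 80 bases before its start and lay within an exon of Hspe1, which is transcribed the other way from the same promoter region. In Timm9 the motifs began 58 and 1 bases before the start, in Tomm20 126 and in Tomm20l 25. In Timm8a1 one began 236 bases before the start and the other at base 25 of the transcript, and in Timm10 the motif began at base 29. A match of 6 letters is a description and no evidence of binding, which was not measured in these libraries.

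The transgene followed the labels. hMYC stood at 1340.1, 1190.3 and 1249.9 CPM (counts relative to the library total) with MYC on, at 428, 414 and 383 CPM at intermediate MYC and at 4.08, 4.01 and 3.26 CPM with MYC off. MYC intermediate therefore kept 32.4% and MYC off 0.3% of the MYC on level. Libraries held 18705516 to 39678799 counts, where 3 counts correspond to 0.0756 to 0.16 CPM, and Pearson's r of log2 CPM between replicates was 0.989 to 0.997 (across genes, which do not count as independent replicates). All 6 T cell markers were detected, and their summed level moved with the groups, from 2277 to 2377 CPM in MYC on through 3756 to 4001 CPM in MYC intermediate to 4893 to 5137 CPM in MYC off. Of the B cell markers described, Ms4a1 and Pax5 had 0 counts in all libraries and Cd79a at most 0.267 CPM. Myeloid Lyz2 and Adgre1 were at 0, whereas Itgam and Csf1r gave a summed myeloid level of 26.5 to 30.9 CPM in MYC on, 32.2 to 35.9 in MYC intermediate and 40.5 to 43.6 in MYC off. Erythroid and stromal, endothelial and epithelial markers summed to at most 0.296 CPM. The part of these markers in the results below was not tested. Changes are relative to the total of each library, so fewer cells of a type cannot be told apart from less RNA per cell.

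The import and matrix chaperone genes were higher with MYC on. Their summed level in TPM (counts per gene length, scaled to the same total in each library) was 8447, 8315 and 7903 with MYC on, 5370.3, 5218 and 5227 at intermediate MYC and 3504, 3434 and 3400.3 with MYC off. The groups did not overlap. MYC intermediate kept 64.1% and MYC off 41.9% of the MYC on sum, at 32.4% and 0.3% of the transgene. Of the 41 genes, 39 passed the count filter and were tested. Timm8a2 had 1 count in all libraries together, and Tomm6 had 42, with 84.2% of its exonic bases shared with neighboring genes.

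Between MYC on and MYC off, 32 of the 39 genes were higher and 0 lower at an adjusted p under 0.01 (edgeR quasi-likelihood test, Benjamini-Hochberg over all 14098 genes tested; 36 of the 39 had an unadjusted p under 0.05). Over all genes tested, 27.4% were called higher and 27.5% lower (54.9% in either direction). Of the 39 genes, 13 were called and more than 2-fold higher, against 10.8% of all genes. In 37 the lowest MYC on library was above the highest MYC off library, against 32.8% of all genes. The median log2 fold change was 0.82 for the 39 genes and −0.03 for all genes tested. The 7 genes not called were Tomm7, Timm8b, Pam16, Tomm34, Timm22, Timmdc1 and Timm17b.

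**Figure D1:**
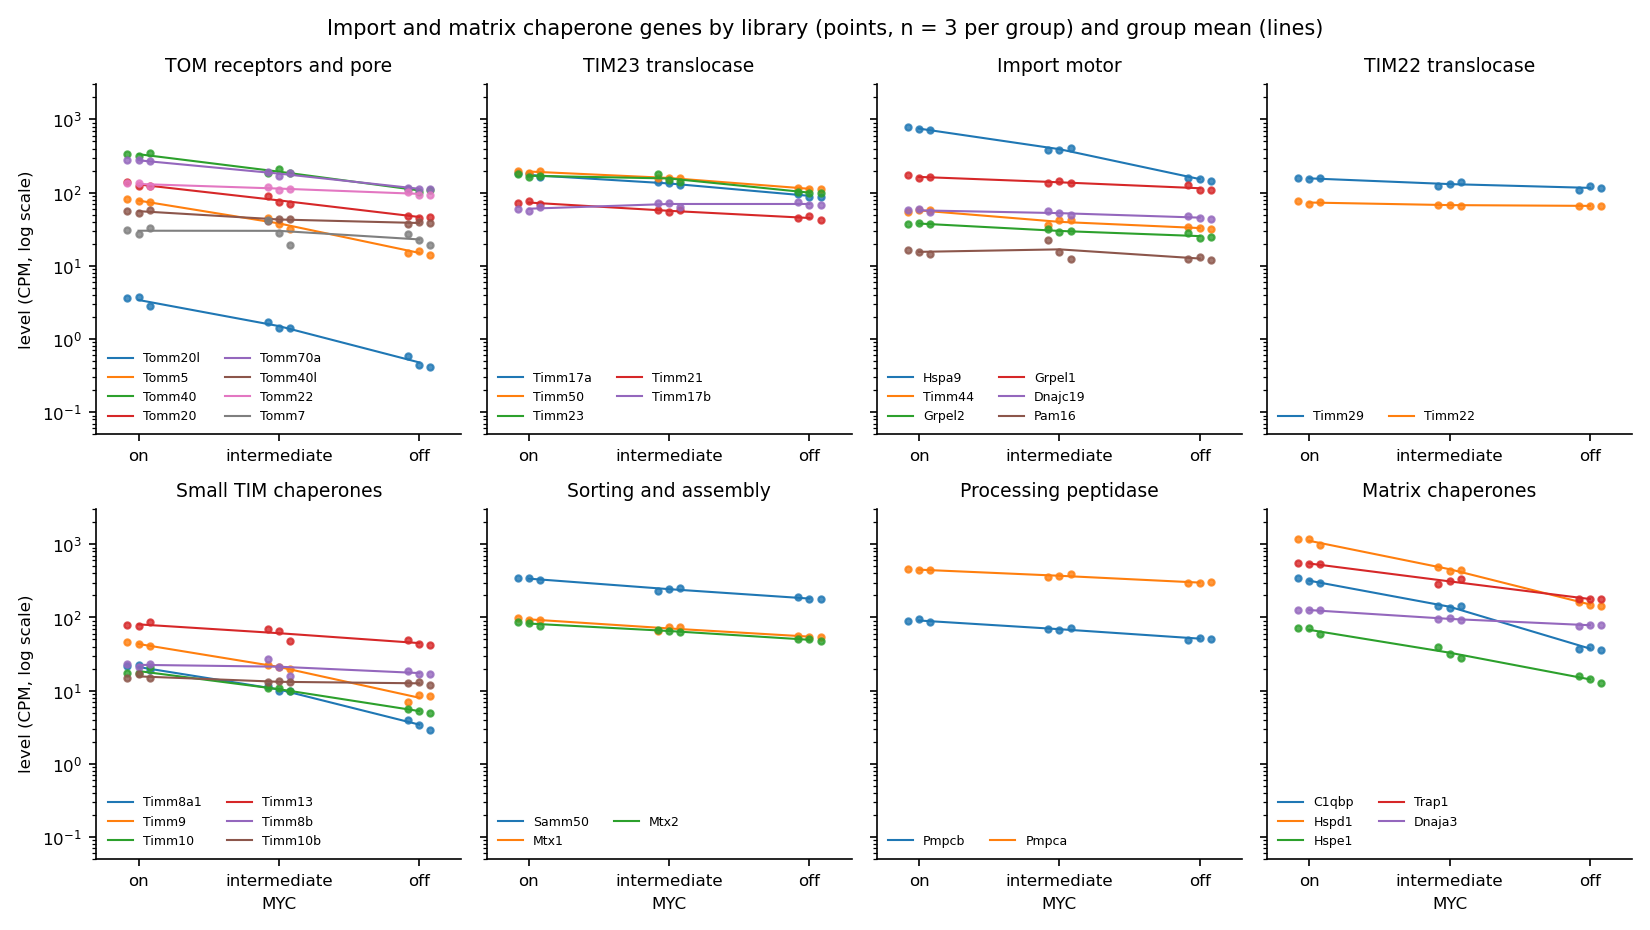
Level of each tested gene of 8 functional groups in CPM (log axis) at the 3 MYC levels. Points are libraries (n = 3 per group) and lines join group means. In the matrix chaperone panel the lines of C1qbp, Hspd1 and Hspe1 fall the most, and in the TIM23 panel Timm17b does not fall.

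Of the functional groups, the matrix chaperones lost the largest share of their summed level. Their summed TPM went from 2778 ± 203 in MYC on to 1293 ± 29.1 in MYC intermediate and 567 ± 8.92 in MYC off (SD, n = 3 each), so that 46.5% and 20.4% remained. All 5 genes were higher in MYC on than in MYC off, against 27.4% of all genes tested. All 5 were also higher in MYC on than in MYC intermediate and in MYC intermediate than in MYC off. Of all genes tested, 17.2% and 14.7% were called higher in these steps.

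C1qbp, which encodes an acidic matrix protein also known as p32, had the largest fold change of the 39 genes. Its level was 344, 315 and 296 CPM with MYC on, 141, 136 and 143 CPM at intermediate MYC and 37.2, 39.8 and 35.5 CPM with MYC off. No library of one group reached the range of another. The log2 fold change of MYC on over MYC off was 3.12 ± 0.0707 SE (edgeR adjusted p = 1.95e-14), which is 8.68-fold.

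Hspd1 encodes HSP60, the barrel-shaped chaperonin of the matrix, and was the most abundant of the 39 genes per length in MYC on, at 1422 ± 154 TPM (SD, n = 3). It stood at 1191, 1178 and 978 CPM with MYC on, 487, 435 and 446 CPM at intermediate MYC and 162, 149 and 141 CPM with MYC off. The groups were again apart, and the log2 fold change was 2.92 ± 0.0865 SE (edgeR adjusted p = 2.85e-13). Hspd1-ps3, a near-identical pseudogene, held counts equal to 1.76% of those of Hspd1.

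Hspe1 encodes HSP10, the lid of the HSP60 barrel, and lies head to head with Hspd1 (chr1:55077835-55088243 for Hspd1 on the minus strand, chr1:55088132-55091307 for Hspe1 on the plus strand). Its level was 72.5, 70.7 and 60.1 CPM with MYC on, 39.7, 31.5 and 27.9 CPM at intermediate MYC and 15.7, 14.3 and 12.8 CPM with MYC off. Both partners thus fell at each step, Hspe1 with a log2 fold change between the ends of 2.28 ± 0.13 SE (edgeR adjusted p = 4.19e-10). The genes share exonic bases at their starts (4.24% of Hspd1 and 7.6% of Hspe1), where a library kit that does not mark strand cannot assign reads.

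Trap1, the HSP90 of the matrix, was higher in MYC on by 1.65 ± 0.0593 on the log2 scale, and Dnaja3, a J-domain cochaperone of mortalin, by 0.72 ± 0.0535 (edgeR adjusted p = 2.2e-12 and 9.44e-09). Per length Trap1 ranked next to Hspd1 in MYC on, at 715 ± 9.53 TPM (SD, n = 3). In CPM Hspa9 was above Trap1 in MYC on (mean 749 against 546).

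In the import motor, 5 of 6 genes were higher in MYC on than in MYC off, but only Hspa9 by more than 2-fold. Hspa9 encodes mortalin, the ATP-driven HSP70 that pulls precursors into the matrix. It stood at 776, 751 and 722 CPM with MYC on, 387, 387 and 404 CPM at intermediate MYC and 159.9, 155 and 144 CPM with MYC off, with no overlap between groups. Its log2 fold change was 2.32 ± 0.0602 SE (edgeR adjusted p = 7.1e-14). Hspa9 and the chaperonin subunits Hspd1 and Hspe1 were therefore all among the genes that changed more than 2-fold between the ends.

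Timm44, the scaffold that holds mortalin at the TIM23 channel, changed less. It measured 55.1, 58.3 and 58.5 CPM with MYC on, 35.7, 41.9 and 42.0 CPM at intermediate MYC and 33.6, 33.1 and 31.7 CPM with MYC off. The groups did not overlap, and the log2 fold change between the ends was 0.84 ± 0.0766 SE (edgeR adjusted p = 1.16e-07). The nucleotide exchange factors Grpel1 and Grpel2, which reset mortalin after each cycle, differed by 0.55 ± 0.0716 and 0.60 ± 0.0841, and Dnajc19, a J-domain subunit of the motor, by 0.36 ± 0.0795 (adjusted p = 6.64e-06, 1.33e-05 and 0.000921). Pam16, the partner that holds the J-domain subunit in check, was not called (0.33 ± 0.163, edgeR adjusted p = 0.0844). Of its exonic bases, 18.7% overlap Glis2 on the opposite strand. Its intermediate libraries were spread widely, at 22.3, 15.7 and 12.4 CPM. Without the first of them its adjusted p was 0.00934. The intermediate libraries stood in the same falling order for Tomm7, Timm8b, Timm13 and Timm23. Genes with larger changes showed this order too, among them Hspe1, Tomm5, Timm9, Timm8a1, Tomm20, Tomm20l and Timm17a. The order was rising for Timm44, Trap1, Pmpca, Samm50, Timm29 and Hspa9. Other genes, such as C1qbp, Hspd1, Timm10 and Tomm40, showed neither order. Spreads of different genes are therefore not independent of each other, and their cause was not tested.

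At the outer membrane, 7 of the 8 tested TOM genes were higher in MYC on, and their summed TPM went from 1427 ± 28.2 through 961 ± 65.1 to 654 ± 24.7 (SD, n = 3 each). The genes differed widely in size of change, from 0.43 to 2.82 on the log2 scale. Tomm40 forms the pore. It stood at 339, 321 and 345 CPM with MYC on, 184, 209 and 187 CPM at intermediate MYC and 111, 101 and 109.5 CPM with MYC off, a log2 fold change of 1.68 ± 0.0659 SE (edgeR adjusted p = 6.05e-12) with no overlap.

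Of the receptors, Tomm20, which binds presequences, measured 141, 125 and 122 CPM with MYC on, 89.0, 75.1 and 70.9 CPM at intermediate MYC and 48.3, 45.1 and 46.0 CPM with MYC off. It was higher in MYC on by 1.51 ± 0.0903 on the log2 scale, and Tomm70a, the receptor for carrier precursors, by 1.32 ± 0.0627 (edgeR adjusted p = 7.72e-10 and 4.75e-11). Tomm22, the central receptor, differed by only 0.48 ± 0.0701 (edgeR adjusted p = 2.04e-05). In MYC off it was the most abundant of these receptors per length, at 289 ± 12.6 TPM against 99.9 ± 1.27 for Tomm70a and 31.7 ± 0.774 for Tomm20 (SD, n = 3 each). This order rests on deposited lengths of 1113 bases for Tomm22, 3778 for Tomm70a and 4906 for Tomm20. In CPM Tomm70a was above Tomm22 in MYC off (mean 113 against 96.1).

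The small subunit Tomm5 was among the strongest responders. Its level was 81.2, 76.9 and 75.5 CPM with MYC on, 44.9, 36.9 and 32.2 CPM at intermediate MYC and 15.2, 15.7 and 14.1 CPM with MYC off. The log2 fold change was 2.41 ± 0.11 SE (edgeR adjusted p = 3.25e-11). Tomm7, another small subunit, was not called (0.43 ± 0.211, adjusted p = 0.0901). Its intermediate libraries gave 42.5, 28.2 and 19.5 CPM, a range that covered the 3 MYC on libraries (27.5 to 32.6 CPM).

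The paralogs Tomm20l and Tomm40l were both higher in MYC on. Tomm20l was a low gene, at 3.64, 3.74 and 2.86 CPM with MYC on, 1.71, 1.41 and 1.39 CPM at intermediate MYC and 0.58, 0.446 and 0.412 CPM with MYC off. Even so its groups did not overlap, and its log2 fold change of 2.82 ± 0.24 SE was the third largest (edgeR adjusted p = 4.82e-08). Tomm20l and Timm9 are neighbors that meet at their 3′ ends (chr12:71111428-71123221, plus strand, and chr12:71123173-71136684, minus strand), and 6.81% of the exonic bases of Tomm20l overlap another gene. Tomm40l stood at 55.7, 53.1 and 58.7 CPM with MYC on, 40.6, 44.2 and 44.1 CPM at intermediate MYC and 36.9, 39.8 and 38.7 CPM with MYC off, or 0.57 ± 0.0698 on the log2 scale (edgeR adjusted p = 2.89e-06). Its value is uncertain because 64.3% of its exonic bases overlap another gene, Nr1i3 on the opposite strand. Tomm34, a cytosolic cochaperone that is not part of the pore, had 79.2, 77.0 and 80.4 CPM with MYC on, 76.9, 77.1 and 66.0 CPM at intermediate MYC and 68.9, 70.5 and 71.3 CPM with MYC off. It was not called (0.20 ± 0.0696, edgeR adjusted p = 0.019, and 0.00757 without replicate 3 of MYC intermediate).

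**Figure D2:**
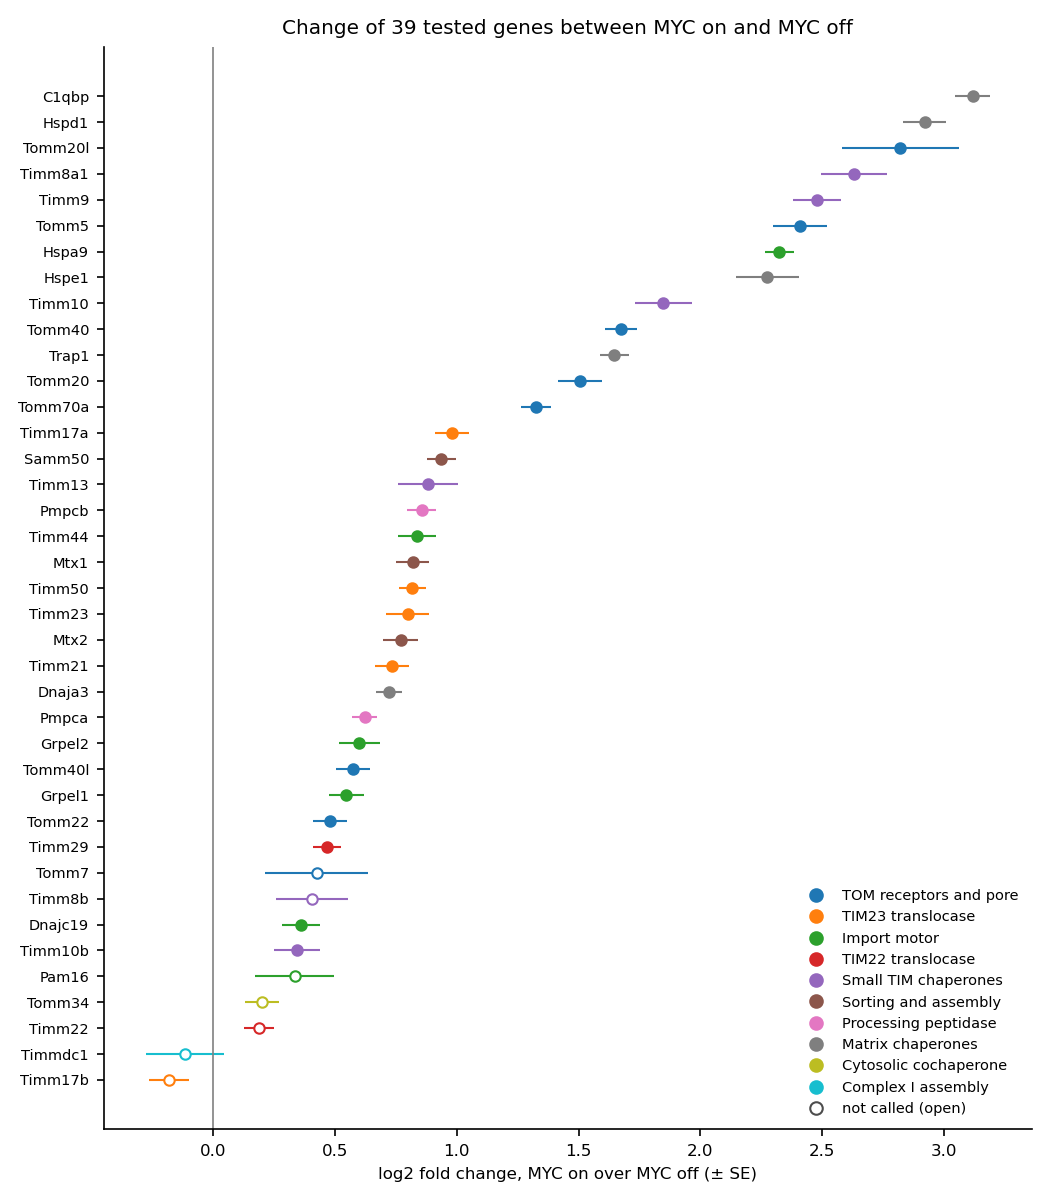
Log2 fold change of MYC on over MYC off (± SE) for the 39 tested genes in order of size, filled where called at an edgeR adjusted p under 0.01 and open where not. The values run from 3.12 for C1qbp to −0.18 for Timm17b, and the 7 open points lie between −0.18 and 0.43.

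The small TIM chaperones of the intermembrane space ranged from no call to more than 6-fold. Timm9 and Timm10 assemble into one chaperone ring. Timm9 measured 46.5, 43.2 and 40.4 CPM with MYC on, 22.6, 20.8 and 19.9 CPM at intermediate MYC and 7.03, 8.61 and 8.36 CPM with MYC off, a log2 fold change of 2.48 ± 0.0987 SE (edgeR adjusted p = 7.01e-12). Timm10 measured 17.2, 17.5 and 20.9 CPM with MYC on, 10.8, 10.8 and 9.82 CPM at intermediate MYC and 5.67, 5.2 and 4.91 CPM with MYC off (1.85 ± 0.117, edgeR adjusted p = 1.52e-09). Neither gene had overlapping groups.

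Timm8a1 is the mouse counterpart of the gene mutated in human deafness-dystonia syndrome, and its protein pairs with that of Timm13. Timm8a1 stood at 21.5, 22.7 and 18.9 CPM with MYC on, 11.5, 9.88 and 9.75 CPM at intermediate MYC and 3.98, 3.42 and 2.91 CPM with MYC off. With 2.63 ± 0.136 on the log2 scale (edgeR adjusted p = 1.34e-10), or 6.19-fold, it changed the most of the small TIM genes. Its partner Timm13 stood at 78.2, 76.7 and 86.5 CPM with MYC on, 69.7, 66.2 and 46.9 CPM at intermediate MYC and 48.9, 43.4 and 41.7 CPM with MYC off (0.88 ± 0.124, edgeR adjusted p = 1.35e-05). One intermediate library of Timm13 thus lay within the MYC off range.

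Timm8b, the paralog of Timm8a1, was not called. Of its exonic bases, 15.6% overlap Nkapd1 on the opposite strand. Timm8b had 23.5, 21.1 and 23.1 CPM with MYC on, 26.8, 21.1 and 15.8 CPM at intermediate MYC and 18.5, 16.6 and 17.0 CPM with MYC off, with a log2 fold change between the ends of 0.41 ± 0.148 SE (edgeR adjusted p = 0.0249). The MYC on and MYC off libraries did not overlap, while the intermediate ones spanned both. With the replicate number as a block its adjusted p was 0.00563, without intermediate replicate 1 it was 0.00319, and without intermediate replicate 3 it was 0.00278. Timm10b, the small TIM at the TIM22 complex, was called by a narrow margin (0.34 ± 0.0936, edgeR adjusted p = 0.00444). Its adjusted p was 0.0257 without MYC on replicate 2, 0.0105 without MYC off replicate 2 and 0.0265 without MYC off replicate 3. Of the exonic bases of Timm10b, 22.1% overlap other genes.

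The inner membrane channels changed less. For the TIM23 translocase, through which presequence proteins pass, 63.3% of the summed TPM remained in MYC off, and 4 of 5 genes were higher in MYC on. Timm50, the presequence receptor of the complex, stood at 197, 186 and 200.4 CPM with MYC on, 158, 157 and 160.2 CPM at intermediate MYC and 114, 111 and 113 CPM with MYC off (0.82 ± 0.0556, edgeR adjusted p = 3.55e-09). Timm23 itself, the channel-forming subunit, and Timm21, which docks the complex to its neighbors, were higher in MYC on by 0.80 ± 0.0888 and 0.73 ± 0.0701 (edgeR adjusted p = 1.08e-06 and 1.88e-07). Timm23 has 5 near-identical pseudogenes, with counts equal to 1.17% of its own.

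Timm17a and Timm17b are alternative partners of Timm23 and differed in their change. Timm17a measured 183, 178 and 163 CPM with MYC on, 139, 135 and 126 CPM at intermediate MYC and 96.6, 87.3 and 87.1 CPM with MYC off, or 0.98 ± 0.0704 on the log2 scale (edgeR adjusted p = 6.71e-09). Timm17b measured 60.6, 56.3 and 63.9 CPM with MYC on, 73.0, 72.7 and 64.1 CPM at intermediate MYC and 74.6, 67.8 and 67.5 CPM with MYC off. All 3 MYC on values of Timm17b lay under the MYC off values, but the difference was not called (−0.18 ± 0.0809, edgeR adjusted p = 0.0619).

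The TIM22 translocase, which inserts metabolite carriers, kept 78.7% of its summed TPM in MYC off. Its subunit Timm29 had 156, 155 and 159 CPM with MYC on, 122, 133 and 138 CPM at intermediate MYC and 109, 122 and 117 CPM with MYC off (0.47 ± 0.0567, edgeR adjusted p = 2.88e-06). The channel gene Timm22 had 75.8, 69.7 and 74.2 CPM with MYC on, 68.7, 68.1 and 65.8 CPM at intermediate MYC and 65.8, 65.5 and 66.4 CPM with MYC off. Its MYC on libraries lay above the others without being called (0.19 ± 0.0626, edgeR adjusted p = 0.0158, and 0.00907 without MYC on replicate 2).

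All 3 genes of the outer membrane sorting and assembly machinery, which inserts β-barrel proteins such as Tomm40, were higher in MYC on. Samm50, its central subunit, stood at 348, 344 and 325 CPM with MYC on, 232, 247 and 252 CPM at intermediate MYC and 191, 176 and 176 CPM with MYC off (0.94 ± 0.059, edgeR adjusted p = 1.4e-09). Mtx1 (metaxin 1) stood at 98.1, 91.4 and 93.3 CPM with MYC on, 64.8, 74.5 and 73.1 CPM at intermediate MYC and 55.5, 54.9 and 53.6 CPM with MYC off (0.82 ± 0.0673, edgeR adjusted p = 3.24e-08). Mtx2 differed by 0.77 ± 0.0714 (edgeR adjusted p = 1.35e-07). The groups of these genes were ordered with MYC and did not overlap. Of the exonic bases of Mtx1, 30.1% are shared with another gene.

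Both subunits of the matrix processing peptidase were higher in MYC on, by less than 2-fold. Pmpcb, the catalytic subunit, measured 89.7, 96.5 and 86.3 CPM with MYC on, 68.9, 67.8 and 70.9 CPM at intermediate MYC and 49.9, 52.6 and 51.5 CPM with MYC off (0.86 ± 0.0602, edgeR adjusted p = 5.3e-09). Pmpca, the subunit that binds the substrate, measured 453, 448 and 449 CPM with MYC on, 354, 367 and 393 CPM at intermediate MYC and 292, 299 and 307 CPM with MYC off (0.62 ± 0.0507, edgeR adjusted p = 2.95e-08). No groups overlapped.

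Timmdc1 shares the Timm name but acts in the assembly of respiratory complex I. It was low, at 5.17, 6.09 and 5.25 CPM with MYC on, 6.77, 4.92 and 4.42 CPM at intermediate MYC and 5.54, 6.46 and 6.3 CPM with MYC off. The groups overlapped (−0.12 ± 0.16, edgeR adjusted p = 0.547).

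The 2 steps of MYC loss were then compared, as each comparison gives them on its own. They share the MYC intermediate libraries. Between MYC on and MYC intermediate, 26 of 39 genes were higher and 0 lower (31 at an unadjusted p under 0.05), against 17.2% higher and 17.4% lower of all genes tested (34.6% in either direction), and 7 were more than 2-fold higher, against 3.03%. Without MYC intermediate replicate 3 the count was 25 higher and 1 lower, the latter Timm17b (−0.29, edgeR adjusted p = 0.00984, and −0.22 with adjusted p = 0.0339 over all 9 libraries). Between MYC intermediate and MYC off, 28 were higher and 0 lower (33 unadjusted), against 14.7% and 9.95% of all genes (24.7% in either direction), and 9 were more than 2-fold higher, against 2.84%. All 3 libraries of the higher MYC level lay above those of the lower in 31 genes in the first step, against 27.6% of all genes, and in 30 in the second, against 21%. Median log2 fold changes were 0.37 and 0.47, and −0.01 for all genes in each step.

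Genes called between the ends but not in the first step were Timm13, Timm23, Grpel1, Tomm22, Dnajc19 and Timm10b. This list rests in part on single libraries: without MYC intermediate replicate 1, Timm13, Timm23 and Tomm22 were called in the first step (edgeR adjusted p = 0.00291, 0.00793 and 0.00961), and without MYC off replicate 1 Grpel1 was (0.00504). With the replicate number as a block Grpel1, Timm13 and Tomm22 were called (adjusted p = 0.0065, 0.00477 and 0.00908). In the second step Grpel2, Tomm40l, Dnajc19 and Timm10b were not called. Timm23 had the largest gap between the steps among these, with 0.11 ± 0.0878 in the first (edgeR adjusted p = 0.337) and 0.69 ± 0.0884 in the second (edgeR adjusted p = 2.11e-05). Without the first intermediate library its first step was 0.24. Its intermediate libraries measured 182, 147 and 139 CPM, beside 181, 163 and 166 CPM in MYC on and 102, 99.6 and 98.7 CPM in MYC off.

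**Figure D3:**
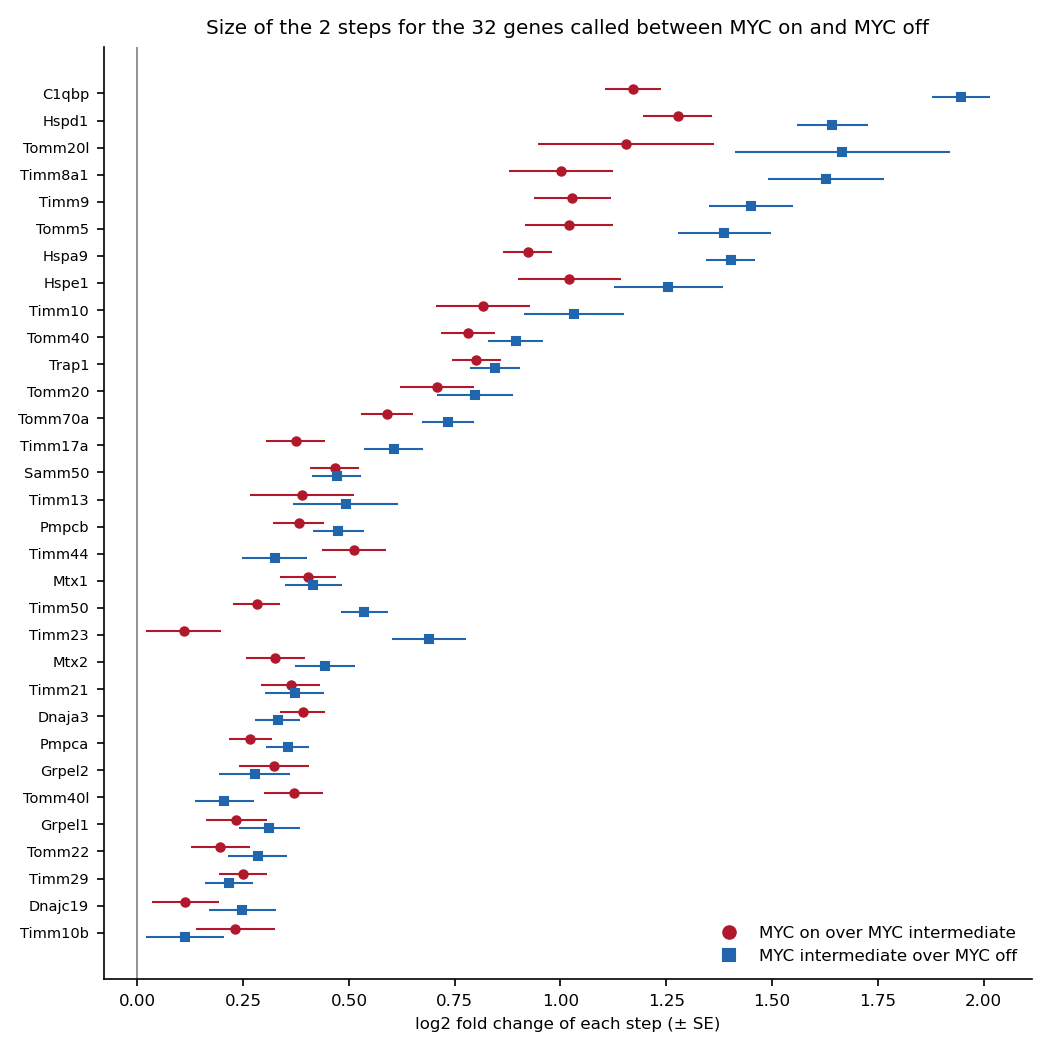
Size (log2 fold change ± SE) of the steps from MYC on to MYC intermediate (circles) and from MYC intermediate to MYC off (squares), higher MYC over lower, for the 32 genes called between the ends. The squares lie to the right of the circles for the 13 genes at the top, and among the genes further down the steps of Timm23 are the farthest apart.

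The test of whether the intermediate level lay off the log2 midpoint of the ends called 1 of 39 genes, against 1.89% of all genes (1.7% above the midpoint and 0.184% below). That gene was C1qbp, which lay 0.39 ± 0.0559 above the midpoint (edgeR adjusted p = 8e-04). Hspa9 lay above the midpoint by 0.24 ± 0.0493 (edgeR adjusted p = 0.0106) and Timm23 by 0.29 ± 0.0754 (edgeR adjusted p = 0.0382). With the replicate number as a block both were called (adjusted p = 0.00523 and 0.00548), which makes 3 genes. Hspa9 was also called without MYC off replicate 1 (edgeR adjusted p = 0.00261) and Timm23 without MYC intermediate replicate 3 (0.00844). An unadjusted p under 0.05 was reached by 8 genes. As a description, the position of MYC intermediate was counted on the log2 scale from 0 (MYC on) to 1 (MYC off). It had a median of 0.44 over the 13 genes called and more than 2-fold higher (0.38 to 0.49). Over all 1517 such genes the median was 0.47, with quartiles of 0.40 and 0.57. The transgene itself stood at 0.19.

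Paralogs and assembly partners were set against each other by the ratio of their TPM within each library, which does not depend on depth. A changed ratio shows unequal change and does not say which gene moved. Of 11 pairs, 9 differed across the 3 groups (two-sided exact permutation test of the F statistic over 1680 assignments of the 9 libraries, adjusted over the 11 pairs, threshold 0.05). The smallest p this test can give is 0.00357, or 0.00561 after adjustment, and 7 pairs reached it. A comparison of 3 libraries with 3 cannot go below 0.1, so single groups were not compared.

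The Timm17a to Timm17b ratio was 0.977, 1.02 and 0.824 with MYC on, 0.616, 0.601 and 0.639 at intermediate MYC and 0.42, 0.417 and 0.418 with MYC off. Timm17a has a deposited length of 7893 bases and Timm17b one of 2557. Per these lengths the pair was near equal with MYC on and tilted toward Timm17b with MYC off. In CPM, Timm17a stayed above Timm17b in every group (mean 174 against 60.3 with MYC on, 90.3 against 70.0 with MYC off). The change of the ratio does not depend on the lengths, but which paralog is higher does. The ratio of Timm8a1 to Timm8b fell from 0.333, 0.393 and 0.299 to 0.156, 0.171 and 0.224 and then to 0.0784, 0.0749 and 0.0623, and that of Timm8a1 to Timm13 from a geometric mean of 0.252 through 0.166 to 0.0738. In all 3 the groups did not overlap and the exact permutation p was the smallest possible.

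For the TOM paralogs the direction differed. Tomm40 stood at 6.92, 6.88 and 6.69 times the TPM of Tomm40l in MYC on, 5.17, 5.38 and 4.83 times in MYC intermediate, and 3.41, 2.9 and 3.22 times in MYC off. Tomm20 stood at 5.67, 4.89 and 6.27 times the TPM of Tomm20l in MYC on, 7.66, 7.84 and 7.47 times in MYC intermediate, and 12.2, 14.9 and 16.4 times in MYC off. The minor paralog thus changed more than the main one in the Tomm20 pair and less in the Tomm40 pair (exact permutation adjusted p = 0.00561 for both), with the caveat on the overlap of Tomm40l given above.

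The chaperonin subunits did not move in step. Hspd1 had 9.17, 9.29 and 9.07 times the TPM of Hspe1 in MYC on, 6.85, 7.71 and 8.94 times in MYC intermediate, and 5.76, 5.79 and 6.16 times in MYC off (exact permutation adjusted p = 0.00561, and 0.054 without MYC off replicate 1). Hspa9 rose relative to Hspd1 as MYC was lowered, from a mean ratio of 0.453 through 0.579 to 0.683 (exact permutation adjusted p = 0.00561). Within the Timm9 and Timm10 ring the ratio went from 0.447 through 0.383 to 0.289 (exact permutation adjusted p = 0.0131, and 0.105 without MYC off replicate 1), and the MYC on libraries overlapped the intermediate ones. For the peptidase, Pmpca to Pmpcb went from 5.95 through 6.44 to 7 (exact permutation adjusted p = 0.00982). Here too the MYC on libraries overlapped the intermediate ones (up to 6.24 against 6.17 and above). The caveat on the overlap of Pmpca with Inpp5e given above applies to this ratio.

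In the other 2 pairs no difference passed. Grpel1 had 4.95, 5.28 and 5.15 times the TPM of Grpel2 in the 3 groups (exact permutation adjusted p = 0.55), and Mtx1 had 1.17, 1.11 and 1.13 times that of Mtx2 (exact permutation adjusted p = 0.75). Between MYC on and MYC off the log2 ratios differed by −0.06 and 0.05.

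**Figure D4:**
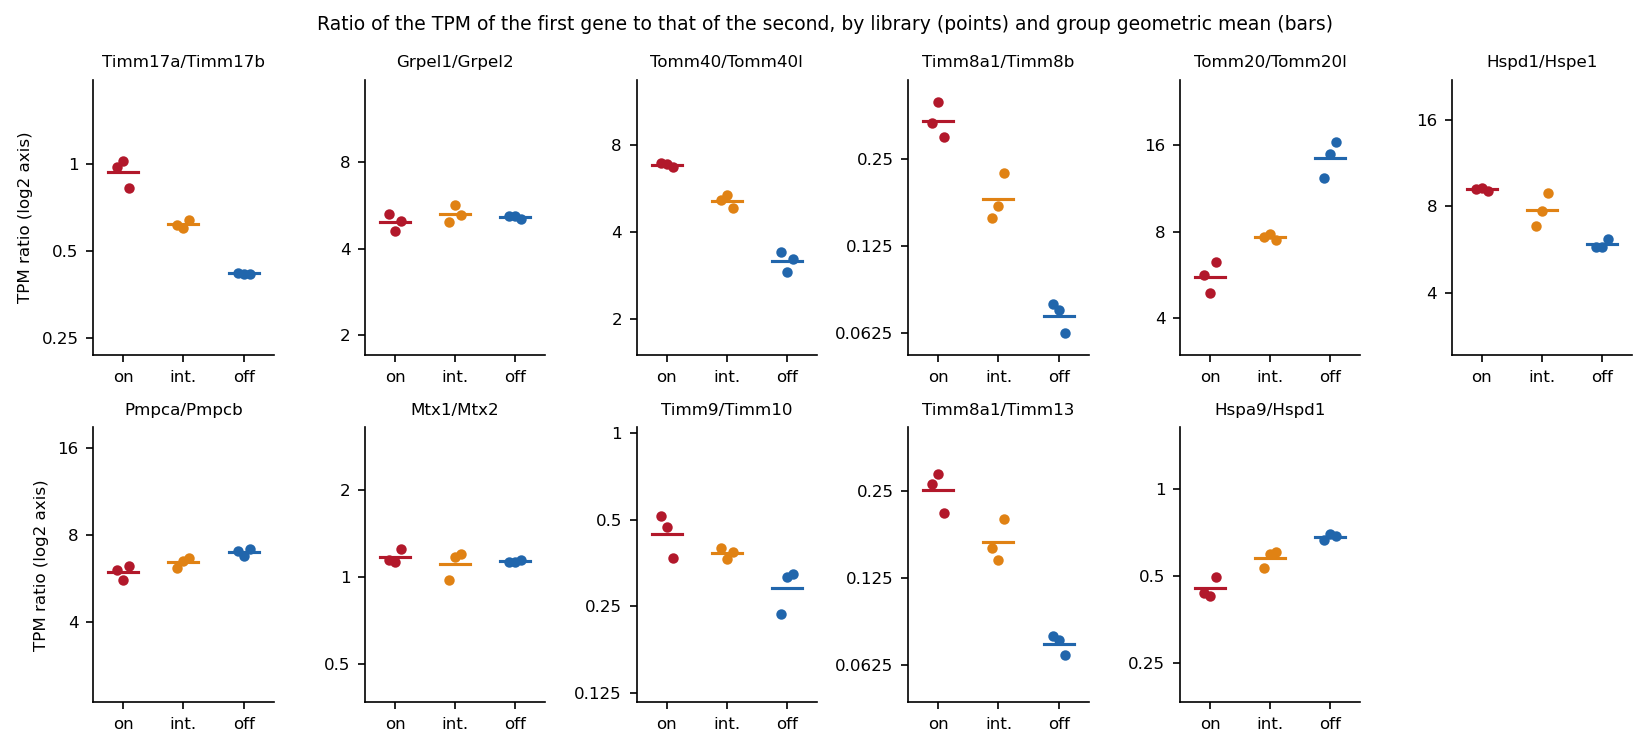
TPM of the first gene over that of the second for the 11 pairs (log2 axis) at the 3 MYC levels. Points are libraries (n = 3 per group) and bars geometric means. The Timm8a1 ratios fall the most, the Tomm20 to Tomm20l, Hspa9 to Hspd1 and Pmpca to Pmpcb ratios climb as MYC is lowered, and the Grpel and Mtx ratios show no call.

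The E-box genes introduced above were then set beside the others. The 6 had a median log2 fold change of MYC on over MYC off of 2.55 (1.51 to 2.92), and the 28 tested genes with a window but no E-box in it had 0.78 (−0.18 to 3.12). Among those 28, 6 were also called and more than 2-fold higher: C1qbp, Tomm5, Hspe1, Tomm40, Trap1 and Tomm70a. Hspe1 counts here as without the motif because the E-box printed for Hspd1, though in an exon of Hspe1, lies outside the Hspe1 window. Over all tested genes with a window the medians were 0.12 with the motif and −0.04 without, and 39.7% against 28.1% were called higher in MYC on. No test was run on the motif, and a missing match says only that these letters are not in this window.

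**Figure D5:**
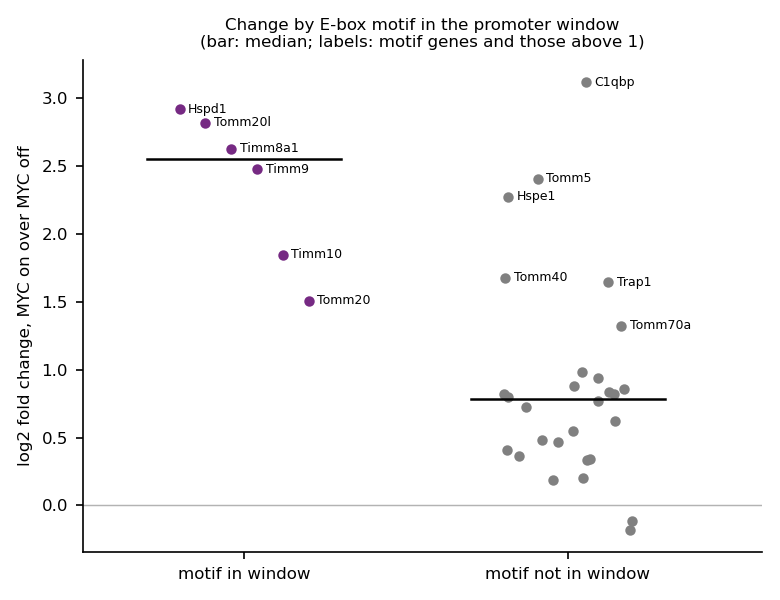
Log2 fold change of MYC on over MYC off for the 34 tested genes with a promoter window, split by whether the window holds CACGTG. Each point is a gene and bars are medians (2.55 with the motif, 0.78 without). C1qbp, without the motif in its window, is the highest point.

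A list of 39 other genes of mitochondrial import, presequence turnover, quality control and contact sites, all of them tested, showed 25 higher in MYC on than in MYC off and 0 lower, against 27.4% higher and 27.5% lower of all genes tested, with a median of 0.52 against −0.03. By role, 9 of 11 genes of oxidative folding and sorting were higher, 4 of 6 of presequence processing, 5 of 9 quality control proteases, 6 of 10 of contact sites and pores, and 1 of 3 mitochondrial stress factors. Nln, which encodes the peptidase neurolysin, led with 58.1, 58.9 and 55.8 CPM with MYC on, 29.2, 29.1 and 32.2 CPM at intermediate MYC and 10.3, 10.6 and 10.5 CPM with MYC off (2.49 ± 0.0768, edgeR adjusted p = 4.16e-13). Chchd4, the oxidoreductase that traps small TIM proteins in the intermembrane space, had 70.3, 68.6 and 67.6 CPM with MYC on, 34.9, 29.7 and 26.3 CPM at intermediate MYC and 14.0, 13.1 and 11.3 CPM with MYC off (2.46 ± 0.112, edgeR adjusted p = 3.03e-11). Immp2l, a subunit of the inner membrane peptidase, had 3.69, 3.58 and 3.82 CPM with MYC on, 1.24, 1.26 and 0.905 CPM at intermediate MYC and 0.68, 0.705 and 0.823 CPM with MYC off (2.36 ± 0.21, edgeR adjusted p = 8.53e-08). Its partner Immp1l was not called (−0.08 ± 0.0883, edgeR adjusted p = 0.449).

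Among the proteases of the matrix and inner membrane, Clpp (1.26 ± 0.104), Afg3l2 (1.25 ± 0.0664) and Lonp1 (0.92 ± 0.0639) were higher in MYC on, whereas Clpx, Spg7, Yme1l1 and Oma1 were not called, at 0.07 to 0.20 on the log2 scale. Of the transcription factors tied to the mitochondrial unfolded protein response, Atf4 was higher in MYC on (0.74 ± 0.0669, edgeR adjusted p = 1.02e-07), while Atf5 and Ddit3 were not called (−0.12 ± 0.0999 and 0.02 ± 0.0875). The porin genes Vdac1, Vdac2 and Vdac3 were higher by 0.78 ± 0.0668, 0.69 ± 0.0606 and 0.51 ± 0.0614. In the second step 18 of these 39 genes were higher and 0 lower (14.7% and 9.95% of all genes), and in the first 20 and 0 (17.2% and 17.4%).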

How the data were processed

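Polyadenylated RNA of the T-ALL line was copied from an oligo(dT) primer and sequenced in 9 libraries. Reads were trimmed, aligned and counted by the authors with cutadapt 1.16, STAR 2.5.4b and featureCounts on mm10, per the submitters' processing notes. The annotation release and the strand setting are not given in the sources used here, and the library kit does not mark strand. The authors deposited raw counts per gene, a reads-per-kilobase score, FPKM, TPM and a rank fraction. Counts were used for the tests and TPM for levels and ratios between genes. The FPKM, score and fraction columns served only to check the files. GENCODE M21 supplied symbols for 53274 of 53380 identifiers. A listed cell type marker is not reported here. The genes, lists and tests were chosen with earlier results of these data known.

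Counts from all 9 libraries were fitted in R 4.3.3 with the quasi-likelihood test of edgeR 4.0.16 (TMM scaling, default count filter, group as the only term, two-sided). Standard errors are from that fit. The threshold was an adjusted p of 0.01 (Benjamini-Hochberg over 14098 genes). DESeq2 1.42.0 was an alternative, beside other scalings, filters, a replicate block, thinning to 18705516 counts, leaving out each library, and pooling of genes with near-identical copies (at least 95% identity over 200 bases, chosen after seeing the data). The fit was tested on simulated data. Same-numbered MYC on and MYC off libraries deviated together (r = 0.381, 0.256 and 0.224 for replicates 1 to 3 over 9897 genes). Same-numbered MYC intermediate libraries did so only in part (0.134, −0.188 and −0.165 with MYC on, 0.372, 0.028 and 0.084 with MYC off). The reported fit and the ratio test did not use the replicate numbers. Only the alternative fit with a replicate block did. Values by library are given for the leading pair of each role, for members of passing ratio pairs, for the main matrix chaperones and for the top 3 other genes. Totals limit precision for low genes, and floors of 3 counts cover counting error only, since PCR copies are not independent molecules.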

Additional observations from a re-analysis of the deposited data

How the results depend on the processing

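Counts of genes called kept within 1.5 times of those reported for each of the 3 pairwise comparisons and for the list of other genes under every alternative run. No gene reversed between MYC on and MYC off. Reversal of single genes was not checked in the 2 steps. Leaving out each library gave 31 to 34 called genes for MYC on against MYC off, 24 to 29 between MYC on and MYC intermediate and 23 to 29 between MYC intermediate and MYC off. With the replicate number as a block these counts were 33 (Timm8b added), 29 (Grpel1, Timm13 and Tomm22 added) and 29 (Dnajc19 added). The count off the midpoint, 1 as reported, was 2 with DESeq2 (Hspa9 added), 4 with no count filter (Hspa9, Hspd1 and Timm23 added), 2 with a filter of 1 CPM in 3 libraries (Hspa9), 3 with the replicate block (Hspa9 and Timm23) and 2 with counts thinned to the lowest total (Hspa9). Leaving out each library gave 1 to 2, with Timm23 added without MYC intermediate replicate 3 and Hspa9 without MYC off replicate 1. In the first step Grpel2 lost its call without each MYC on library and without MYC intermediate replicates 2 and 3 (edgeR adjusted p = 0.0148 to 0.0234), Mtx2 lost it without MYC on replicate 1 (0.0117), and Timm17b was called lower in MYC on without MYC intermediate replicate 3. In the second step Grpel1, Timm13, Timm29, Timm44 and Tomm22 lost their calls without MYC off replicate 2 and without MYC off replicate 3 (edgeR adjusted p = 0.0106 to 0.0304), Timm29 the most often, and Pam16, Timm8b and Tomm7 gained one without MYC intermediate replicate 3. Pairs passing numbered 7 to 9 over the libraries left out, the lowest without MYC off replicate 1. With only the 6 MYC on and MYC off libraries in the fit, Tomm34, Pam16, Timm8b, Timm22 and Tomm7 were also called (edgeR adjusted p = 0.00327, 0.00335, 0.000562, 0.00794 and 0.00362), and DESeq2 also called Timm8b and Timm22 (adjusted p = 0.00779 and 0.00962). The causes of these differences were not tested. Over single genes between MYC on and MYC off and over pairs, 791 values kept their call, 16 gained one and 5 lost one. These totals leave out single genes in the 2 steps and off the midpoint, where further calls changed. Other scalings moved the median of all genes by less than 0.1 on the log2 scale. Low genes such as Tomm20l (409 counts in all) and Timmdc1 (1444) are limited by depth, and Tomm6 and Timm8a2 did not pass the count filter (without it, edgeR adjusted p = 0.135 and 0.596 between MYC on and MYC off).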
